A study of Mus musculus with 12 samples.

Results

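Chemokines are small secreted proteins that bind to G protein-coupled receptors on leukocytes and resident cells and direct cell movement along their gradients. A set of 9 that have been studied in inflamed kidney were followed here in isolated glomeruli, namely Ccl2, Ccl5, Ccl7, Cxcl1, Cxcl9, Cxcl10, Cxcl12, Cxcl16 and Cx3cl1. They were chosen by gene symbol, with earlier results of these data known. They make up 9 of the 26264 gene symbols in the count tables, and all 9 were found. Of these, 8 passed the filter on low counts that 17002 genes passed, and Ccl7 did not. Cxcl9 passed it mainly through its Day 5 libraries, of which 4 of 5 reached the cutoff against 1 of 6 at baseline.

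Glomeruli came from male mice of the BALB/cAjcl (Ajcl) and BALB/cByJcl (ByJcl) substrains, aged 8 weeks and bought from a single breeder. Baseline mice are labelled as untreated, and Day 5 mice had received adriamycin (ADR; doxorubicin, a DNA-damaging anthracycline that injures podocytes) once by vein at 10 mg/kg. Each of the 4 groups held 3 mice and 3 libraries. The study's methods also mention control mice given saline, and the count tables name the baseline libraries as controls, so whether baseline mice had a saline injection is not settled here. Ajcl Day 5 replicate 1 was left out of the fit for reduced glomerular purity and its values are given apart, so that group has 2 fitted libraries, replicates 2 and 3. That exclusion follows the methods of the study.

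In the kidney, tumour necrosis factor and interleukin signals act through the transcription factor NF-kB to induce Ccl2 and Cxcl1, and interferon-gamma induces Cxcl9 and Cxcl10. Cxcl12 is made constitutively, podocytes being a known glomerular source, and Cx3cl1 and Cxcl16 are made as membrane-bound proteins that proteases release. Ccl2 and Ccl7 attract monocytes through Ccr2, Ccl5 attracts leukocytes through receptors that include Ccr1, Cxcl1 attracts neutrophils through Cxcr2, and Cxcl9 and Cxcl10 attract T cells through Cxcr3.

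The sequence before the start site is shown for the chemokines that rose in ByJcl and have an entry in the RefSeq promoter table. Of the 9 chemokines, 5 had an entry (Cxcl1, Cxcl9, Cxcl10, Cxcl12 and Cx3cl1), and Ccl2, Ccl5, Ccl7 and Cxcl16 did not. Each run is the 250 bases before the annotated start, in the direction of transcription, on mouse build GRCm38.p6. Capitals mark matches to the NF-kB consensus or to the interferon-stimulated response element core (GAAANNGAAA) on either strand. The Cxcl10 run lies at chr5:92348890-92349139 on the minus strand, the Cxcl1 run at chr5:90890995-90891244 on the plus strand, and the Cxcl12 run at chr6:117168285-117168534 on the plus strand.
Cxcl10: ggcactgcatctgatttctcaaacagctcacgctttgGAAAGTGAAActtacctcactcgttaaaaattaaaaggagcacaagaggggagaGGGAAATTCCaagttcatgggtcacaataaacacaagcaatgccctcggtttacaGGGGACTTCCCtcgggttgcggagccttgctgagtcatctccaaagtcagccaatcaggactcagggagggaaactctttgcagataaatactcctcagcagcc
Cxcl1: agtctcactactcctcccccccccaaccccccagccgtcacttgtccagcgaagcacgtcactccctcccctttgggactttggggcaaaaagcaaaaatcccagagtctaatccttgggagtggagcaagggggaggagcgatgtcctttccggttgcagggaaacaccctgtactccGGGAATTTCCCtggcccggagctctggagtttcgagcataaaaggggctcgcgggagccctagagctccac
Cxcl12: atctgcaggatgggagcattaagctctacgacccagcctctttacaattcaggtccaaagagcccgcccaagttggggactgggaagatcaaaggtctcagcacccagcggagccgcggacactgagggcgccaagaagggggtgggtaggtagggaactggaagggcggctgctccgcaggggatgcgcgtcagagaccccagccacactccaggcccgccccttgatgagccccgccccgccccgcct

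In Cxcl10, 1 match to the interferon element core lay 213 to 204 bases before the start. NF-kB matches in Cxcl10 covered 159 to 150 and, as overlapping matches on both strands, 104 to 94 bases before it. In Cxcl1, overlapping NF-kB matches on both strands covered 71 to 61 bases before the start. Neither motif was matched in this window in Cxcl12, Cxcl9 or Cx3cl1. The NF-kB consensus was matched in 2 of the 5 chemokine promoters and in 7.25% of 32851 promoters of the same length, and the interferon core in 1 of 5 and 2.98%. The AP-1 element TGANTCA was matched in 1 of the 5, Cxcl10, 74 to 68 bases before the start, and in 6.75% of all promoters. The letters TTCNNNGAA were matched in none of the 5 and in 7.02% of all promoters. A match of letters is a description only and does not show a bound site.

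Total counts lay between 42198416 and 54687045 per library, so that 3 counts corresponded to 0.0554 to 0.0702 CPM (read counts scaled to a common library size) after TMM scaling, edgeR's correction for library composition. All levels below are in TMM-normalized CPM. Podocyte markers summed to between 9985 and 22899 CPM, and tubule markers, which mark carried-over tubule fragments, to between 639 and 6645 CPM in the fitted libraries and 9778 CPM in Ajcl Day 5 replicate 1. In bulk RNA, fewer cells of a type and less RNA per cell cannot be told apart. Baseline and Day 5 counts were given in separate tables, so that treatment and table cannot be told apart either.

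**Figure D1:**
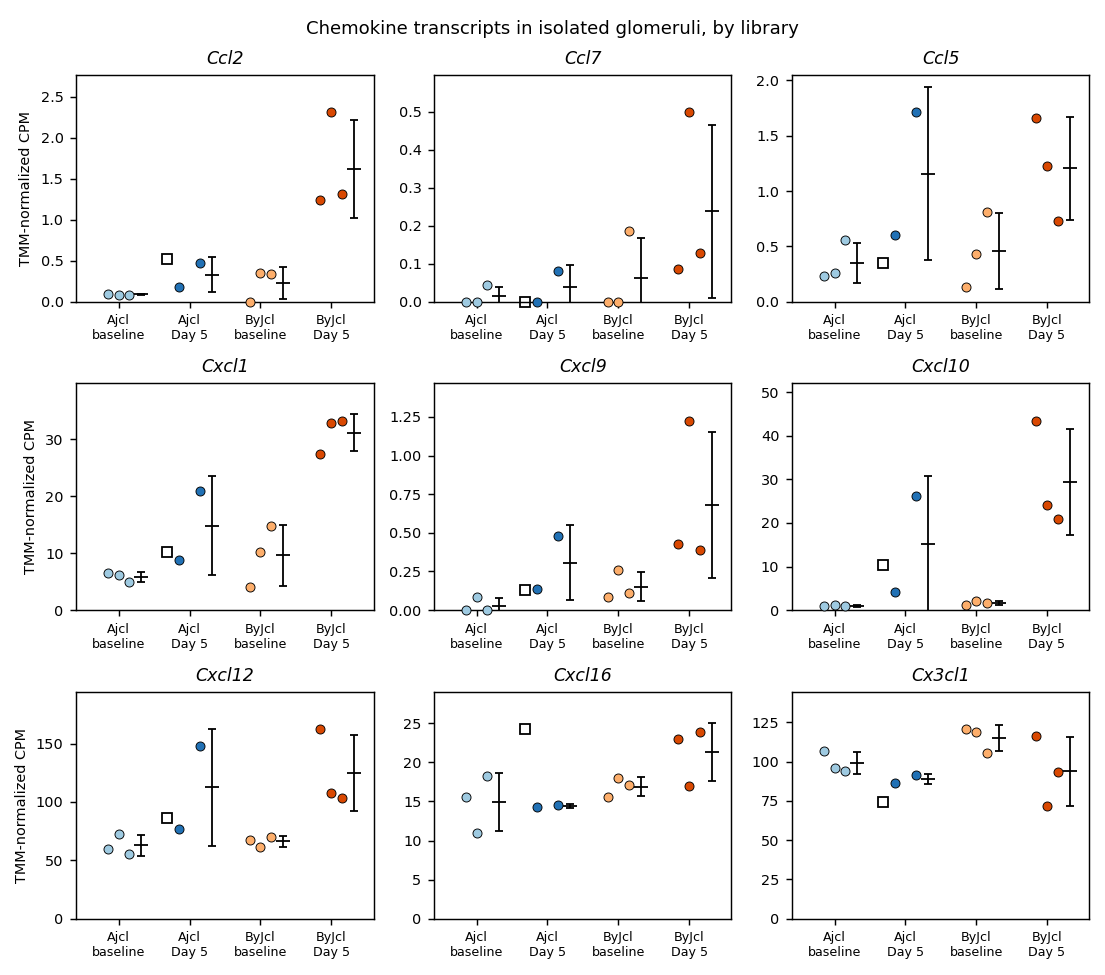
TMM-normalized CPM (y axis, linear from 0) of the 9 chemokines in each library, by substrain and time (x axis). Filled points are fitted libraries, the open square is Ajcl Day 5 replicate 1 (not fitted), and the bar at the right of each group is the mean with the SD (n = 3, or 2 for Ajcl Day 5). The ByJcl Day 5 libraries of Ccl2, Cxcl1, Cxcl10 and Cxcl12 lie above every ByJcl baseline library.

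The first question was which chemokines differed between Day 5 and baseline in ByJcl. Ccl2, Cxcl1, Cxcl10 and Cxcl12 rose, and none fell. The increase was 18.2-fold for Cxcl10, 7.23-fold for Ccl2, 3.30-fold for Cxcl1 and 1.92-fold for Cxcl12. These were 4 of the 8 tested chemokines, whereas 5.75% of all tested genes were called higher (edgeR quasi-likelihood test, Benjamini-Hochberg adjusted p below 0.05). Cxcl9 was tested through its Day 5 libraries and is set aside in the counts that follow. The Day 5 libraries all lay above the baseline libraries for 4 of the other 7, an arrangement that 15.9% of all tested genes showed. The median log2 fold change of the 7 was 1.42, against 0.01 over all tested genes.

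Cxcl10 (chr5:92494497-92496748, minus strand, GRCm39) encodes an interferon-inducible ligand of Cxcr3. In ByJcl its level was 1.19, 2.20 and 1.59 CPM at baseline and 43.4, 24.1 and 20.9 CPM at Day 5. Every Day 5 library exceeded every baseline library. The log2 fold change was 4.19 ± 0.61 (SE), with an edgeR adjusted p of 0.00305. The call was kept in each of the 11 fits that left out a library, in which the log2 fold change ranged from 3.78 to 4.42.

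Cxcl9 lies 18.6 kb from Cxcl10 in the same cluster on chromosome 5, shares its receptor, and was much less abundant. Its ByJcl level was 0.0852, 0.259 and 0.111 CPM at baseline, or 4 to 12 counts, and 0.427, 1.22 and 0.388 CPM at Day 5, or 18 to 54 counts. The Day 5 libraries lay above the baseline libraries, but the log2 difference of 2.18 ± 0.88 (SE) did not pass the test (edgeR adjusted p = 0.142).

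Cxcl1 (chr5:91039094-91040974, plus strand), the neutrophil attractant, was measured at 4.0, 10.1 and 14.8 CPM in ByJcl at baseline. At Day 5 it was measured at 27.5, 32.8 and 33.2 CPM. The 3 Day 5 values were close together and did not overlap the more scattered baseline values. The log2 fold change was 1.72 ± 0.41 (SE; edgeR adjusted p = 0.0250). The adjusted p was 0.0794 without ByJcl baseline replicate 2 and 0.0812 without ByJcl Day 5 replicate 2.

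Ccl2 (chr11:81926397-81928279, plus strand), the monocyte attractant, was a low-count transcript. Its ByJcl counts were 0, 16 and 18 at baseline and 58, 102 and 61 at Day 5, or 0, 0.345 and 0.333 CPM against 1.24, 2.31 and 1.31 CPM. All Day 5 libraries lay above the baseline libraries. The log2 fold change was 2.85 ± 0.79 (SE), with an edgeR adjusted p of 0.0423. The adjusted p rose above 0.05 in 8 of the 11 fits that left out a library, including each of the 3 Ajcl baseline, each of the 3 ByJcl Day 5 and 2 of the ByJcl baseline libraries, with values up to 0.149. It was 0.0742 when the ByJcl groups were fitted alone.

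Ccl7, which also binds Ccr2, lies 8.25 kb from Ccl2 on chromosome 11. It was at 0 counts in 6 of the 12 libraries and was not tested. Its ByJcl counts were 0, 0 and 10 at baseline and 4, 22 and 6 at Day 5, and the groups overlapped.

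Ccl5, a ligand of Ccr1, was measured in ByJcl at 0.128, 0.431 and 0.813 CPM at baseline and at 1.66, 1.22 and 0.733 CPM at Day 5. The groups overlapped, and the log2 difference of 1.42 ± 0.64 (SE) did not pass (edgeR adjusted p = 0.185).

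Cxcl12 (chr6:117144945-117158328, plus strand), the ligand of Cxcr4 and Ackr3, was abundant at baseline. In ByJcl it was measured at 67.2, 61.4 and 70.0 CPM at baseline and at 162, 108 and 104 CPM at Day 5. The libraries did not overlap, and replicate 1 stood above the other 2 Day 5 libraries. The log2 fold change was 0.94 ± 0.25 (SE; edgeR adjusted p = 0.0353). The adjusted p lay between 0.0695 and 0.123 in the 5 fits that left out a ByJcl baseline library or ByJcl Day 5 replicate 1 or 2.

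The membrane-bound chemokines did not pass the test in ByJcl. Cx3cl1, the ligand of Cx3cr1, was at 121, 119 and 105 CPM at baseline and at 116, 71.9 and 93.6 CPM at Day 5, a log2 difference of -0.26 ± 0.16 (SE; edgeR adjusted p = 0.309). Without ByJcl Day 5 replicate 1, which was its highest Day 5 library, the log2 fold change was -0.46 with an adjusted p of 0.0483. Cxcl16, the ligand of Cxcr6, was at 15.5, 17.9 and 17.1 CPM at baseline and at 23.0, 17.0 and 23.9 CPM at Day 5, a log2 difference of 0.37 ± 0.18 (SE; edgeR adjusted p = 0.222).

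Leaving out ByJcl baseline replicate 2 or ByJcl Day 5 replicate 2 reduced the 4 calls to 1, which was Cxcl10, and leaving out ByJcl baseline replicate 3 reduced them to 2, Cxcl1 and Cxcl10. Leaving out ByJcl Day 5 replicate 1 left 3 chemokines called, Cxcl1 and Cxcl10 as higher and Cx3cl1 as lower.

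The same comparison in Ajcl rests on 2 Day 5 libraries, and it called only Cxcl10, which was 15.9-fold higher. This was 1 of the 8 tested chemokines, against 0.306% of all tested genes called higher. With Cxcl9 set aside as above, the median log2 fold change of the other 7 was 1.39, against -0.01 over all tested genes. All 3 Ajcl baseline libraries lay below the fitted Day 5 libraries for 5 of these 7 chemokines, an arrangement that 13.3% of all tested genes showed.

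Cxcl10 was measured in Ajcl at 0.842, 1.23 and 0.852 CPM at baseline. At Day 5 it was measured at 4.18 CPM in replicate 2 and 26.2 CPM in replicate 3, and at 10.4 CPM in replicate 1, which was not fitted. All Day 5 libraries were above baseline, with a wide spread among them. The log2 fold change was 3.99 ± 0.64 (SE; edgeR adjusted p = 0.0298), and it was 3.81 with all 12 libraries (adjusted p = 0.0239). It fell to 2.07 without Ajcl Day 5 replicate 3 (adjusted p = 0.353). The adjusted p also rose above 0.05 without any 1 of the 3 Ajcl baseline libraries (0.126 to 0.201), and was 0.0613 without ByJcl baseline replicate 3 and 0.108 when the Ajcl groups were fitted alone.

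Cxcl12 was measured in Ajcl at 59.9, 72.5 and 55.8 CPM at baseline, and at 76.9 and 148 CPM in the fitted Day 5 libraries. The log2 difference was 0.87 ± 0.27 (SE; edgeR adjusted p = 0.282). Replicate 1 held 86.0 CPM. The difference was 0.27 without Ajcl Day 5 replicate 3 (adjusted p = 1.00) and 1.27 without Ajcl Day 5 replicate 2 (adjusted p = 0.0429), the only 1 of the 11 fits leaving out a library that called it.

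Cxcl1 was measured in Ajcl at 6.43, 6.09 and 4.86 CPM at baseline and at 8.75 and 21.0 CPM at Day 5, with 10.1 CPM in replicate 1. The log2 difference was 1.39 ± 0.45 (SE; edgeR adjusted p = 0.297). Ccl2 had 4 counts in each Ajcl baseline library, and 8 and 24 counts in the fitted Day 5 libraries, with 24 in replicate 1. Its log2 difference of 1.91 ± 0.96 (SE) did not pass (edgeR adjusted p = 0.567).

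Ccl5 in Ajcl was at 0.234, 0.254 and 0.554 CPM at baseline and at 0.604 and 1.71 CPM at Day 5, whereas replicate 1 held 0.346 CPM, within the baseline range (edgeR adjusted p = 0.430). Cxcl9 had 0, 4 and 0 counts at baseline and 6 and 24 at Day 5, with 6 in replicate 1 (adjusted p = 0.337). Ccl7 had 0, 0 and 2 counts at baseline and 0 and 4 at Day 5, with 0 in replicate 1.

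Cx3cl1 and Cxcl16 did not pass the test in Ajcl either. Cx3cl1 was at 107, 95.7 and 94.3 CPM at baseline and at 86.6 and 91.4 CPM at Day 5, with 74.5 CPM in replicate 1 (log2 difference -0.13 ± 0.17 SE, edgeR adjusted p = 0.868). Cxcl16 was at 15.6, 11.01 and 18.3 CPM at baseline and at 14.2 and 14.6 CPM at Day 5 (log2 difference -0.03 ± 0.20 SE, adjusted p = 0.975). Replicate 1 held 24.2 CPM of Cxcl16, the highest value of that gene in the 12 libraries, and with it in the fit the difference was 0.24.

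The Ajcl Day 5 libraries differed among themselves across other genes too. The summed level of 14 interferon-gamma response genes was 458 CPM in replicate 2 and 970 CPM in replicate 3, against 307 to 345 CPM at baseline. The summed level of 11 podocyte markers was 17453 CPM in replicate 2 and 12748 CPM in replicate 3. Of the 2 fitted libraries, replicate 3 was thus the higher for Ccl2, Ccl5, Cxcl1, Cxcl9, Cxcl10 and Cxcl12 and for interferon response genes, and the lower for podocyte markers, and the part of this in the results was not tested.

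**Figure D2:**
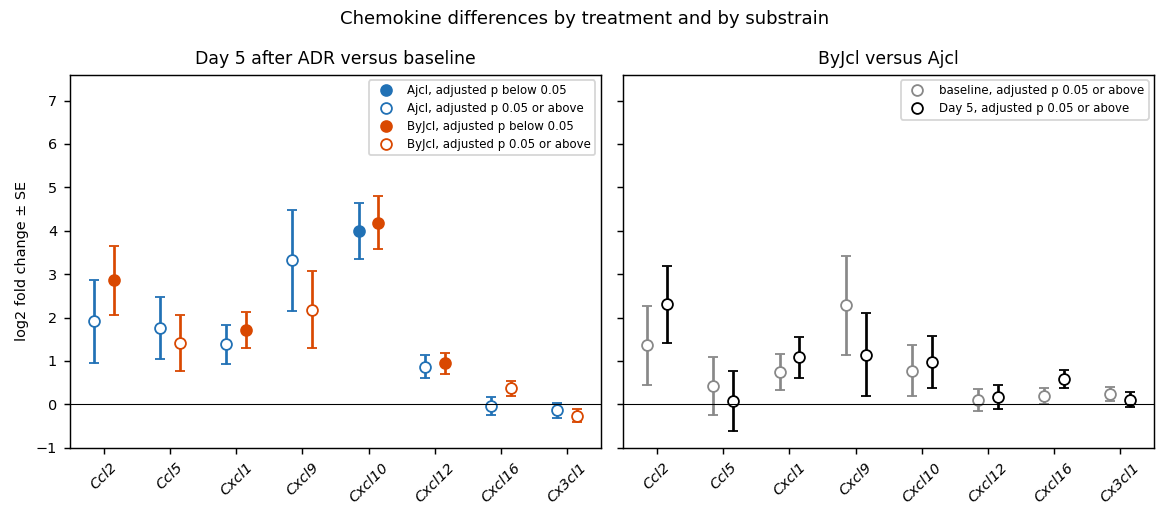
Log2 fold change with its SE (y axis) for the 8 tested chemokines (x axis), for Day 5 against baseline in each substrain (left) and for ByJcl against Ajcl at each time (right). Filled points have an edgeR adjusted p below 0.05; these are Cxcl10 in both substrains and Ccl2, Cxcl1 and Cxcl12 in ByJcl, and no point on the right is filled.

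The second question was whether the substrains differed. At baseline, none of the 8 tested chemokines was called between ByJcl and Ajcl, against 0.159% of all tested genes (edgeR). None had an unadjusted p below 0.05, against 8.34% of all tested genes, and DESeq2 called 0. Of the 8, 7 overlapped between the substrains, and Cxcl9, at 0 to 4 counts in Ajcl and 4 to 12 counts in ByJcl, did not, although 1 library of each had 4 counts and they differed only by library scaling. Of all tested genes, 8.22% lay wholly higher in ByJcl. The log2 differences relative to Ajcl ranged from 0.10 for Cxcl12 to 2.28 for Cxcl9.

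At Day 5, again none of the 8 was called, against 0.165% of all tested genes (edgeR). DESeq2 called 0, and 3 had an unadjusted p below 0.05, against 14% of all tested genes, namely Ccl2, Cxcl1 and Cxcl16. For these 3 the ByJcl libraries lay above both fitted Ajcl libraries, as they did for 15.1% of all tested genes. The log2 difference was 2.30 ± 0.89 (SE) for Ccl2 (edgeR adjusted p = 0.296) and 1.08 ± 0.46 for Cxcl1 (adjusted p = 0.334). Ajcl Day 5 replicate 1 also lay below all ByJcl Day 5 libraries for both genes.

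Marker lists differed between the same Day 5 libraries. For monocyte and macrophage markers the sums were already apart at baseline, at 128 to 150 CPM in Ajcl and 176 to 223 CPM in ByJcl. At Day 5 the monocyte and macrophage sums were 186 and 266 CPM in the 2 fitted Ajcl libraries and 268 to 354 CPM in ByJcl. These did not overlap. Without Ly6c2, whose counts are uncertain as given below, they did overlap, at 138 and 211 CPM in Ajcl and 201 to 311 CPM in ByJcl. Neutrophil markers summed to 2.17 and 6.91 CPM in Ajcl against 9.09 to 20.4 CPM in ByJcl, without overlap. Podocyte markers summed to 12748 and 17453 CPM in Ajcl and to 9985 to 13622 CPM in ByJcl, which overlap. Of 14 monocyte and macrophage markers 4 had an unadjusted p below 0.05, all higher in ByJcl, against the same 14% of all tested genes. Of 6 tested neutrophil markers 4 had one, all higher in ByJcl, and of 11 podocyte markers 7 had one, all lower. The edgeR fit called none of these markers between the substrains, and DESeq2 called 1 in each of the 3 lists against 3.15% of all tested genes. Of 17 NF-kB targets and feedback genes 10 also had an unadjusted p below 0.05, as had 7 of 13 interferon-gamma response genes, all higher in ByJcl. The edgeR fit called none of them and DESeq2 called 2 and 0. The part of all these lists in the chemokine differences was not tested.

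For Cxcl16 the log2 difference at Day 5 was 0.59 ± 0.21 (SE; edgeR adjusted p = 0.258), but Ajcl Day 5 replicate 1 lay above all ByJcl libraries and with it the difference was 0.30. For Cxcl10 the difference was 0.97 ± 0.60 (SE; edgeR adjusted p = 0.495), and the libraries overlapped because Ajcl replicate 3 lay within the ByJcl range. Without that replicate it was 2.89 with an adjusted p of 0.0340, and without Ajcl replicate 2 it was 0.18 (adjusted p = 0.988). The other 9 fits that left out a library did not call it. The other 4 differences were 0.08 for Ccl5, 0.11 for Cx3cl1, 0.17 for Cxcl12 and 1.15 for Cxcl9.

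The difference between the substrains in their response to ADR was tested as an interaction. None of the 8 chemokines was called, and none had an unadjusted p below 0.05. The edgeR fit called 0% of all tested genes, with 1363 at an unadjusted p below 0.05, and DESeq2 called 22 genes and none of these chemokines. The interaction on the log2 scale was 0.19 ± 0.84 (SE) for Cxcl10, 0.94 ± 1.29 for Ccl2, 0.33 ± 0.61 for Cxcl1 and 0.07 ± 0.37 for Cxcl12. The calls made in ByJcl and not in Ajcl are therefore not shown to differ between the substrains.

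Levels of different genes were compared per kilobase of annotated exon. At ByJcl baseline Cx3cl1 was highest, at 28.9 ± 2.09 CPM per kb (SD, n = 3), followed by Cxcl12 at 7.93 ± 0.53, Cxcl1 at 5.12 ± 2.87 and Cxcl16 at 3.29 ± 0.24. Cxcl10 held 0.737 ± 0.225 CPM per kb, and Ccl5, Ccl2, Ccl7 and Cxcl9 followed with 0.445 or less.

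At ByJcl Day 5 Cx3cl1 was still first, at 23.6 ± 5.56 CPM per kb (SD, n = 3). Cxcl1 at 16.6 ± 1.69, Cxcl12 at 14.9 ± 3.90 and Cxcl10 at 13.1 ± 5.41 CPM per kb came next, and their libraries overlapped, running from 14.6 to 17.7 for Cxcl1, from 12.4 to 19.4 for Cxcl12 and from 9.28 to 19.3 for Cxcl10. Cxcl16 held 4.16 ± 0.73, Ccl2 1.42 ± 0.53 and Ccl5 1.18 ± 0.45 CPM per kb. Ccl7 and Cxcl9 remained lowest, at 0.295 ± 0.281 and 0.225 ± 0.156 CPM per kb.

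**Figure D3:**
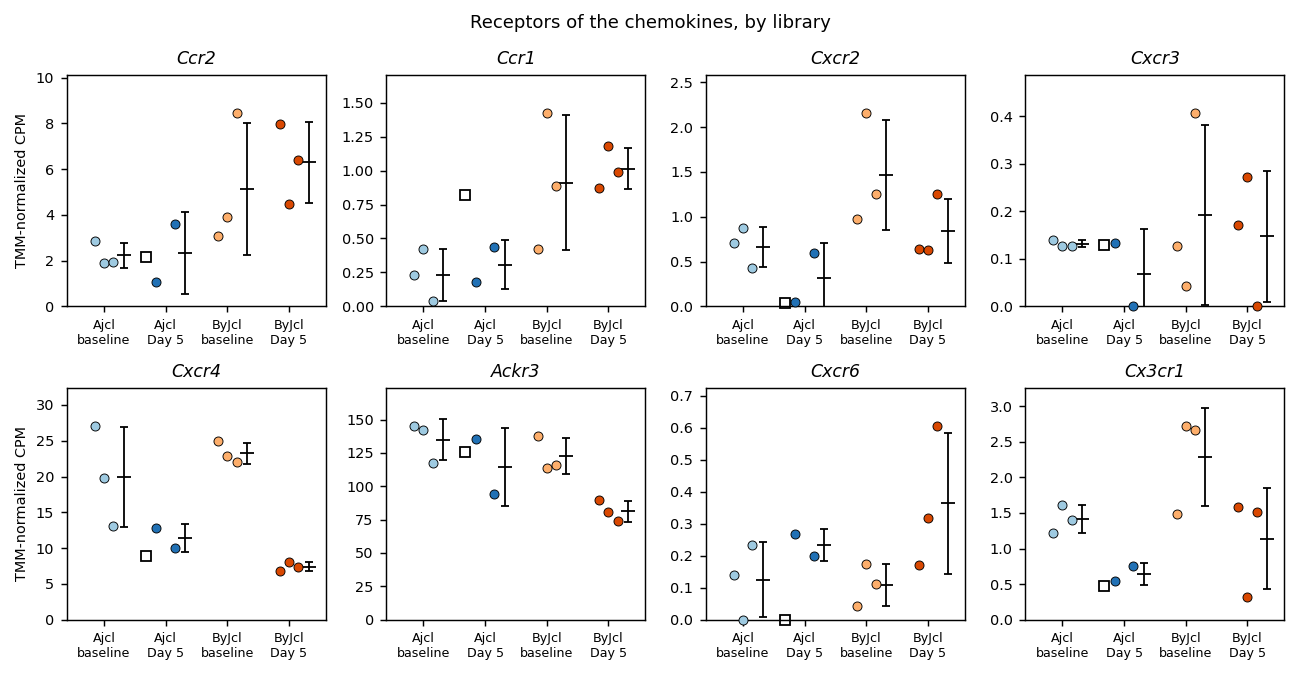
TMM-normalized CPM (y axis, linear from 0) of 8 receptors of the chemokines in each library, by substrain and time (x axis); symbols and bars as in the plot of chemokine levels (filled points fitted, open square Ajcl Day 5 replicate 1, mean and SD). Cxcr4 and Ackr3 are lower in every ByJcl Day 5 library than in every ByJcl baseline library, and Cxcr3 and Cxcr6 stay below 0.7 CPM.

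Of 23 chemokine receptors and decoy receptors, 18 were tested, of which Ccr3, Cxcr3 and Cxcr6 reached the cutoff in fewer than 2 libraries at baseline or at Day 5. In ByJcl, 5 of the other 15 fell and none rose after ADR, while 4.83% of all tested genes were called lower. Cxcr4, the signalling receptor of Cxcl12, was at 24.9, 22.8 and 22.05 CPM at baseline and at 6.79, 8.02 and 7.37 CPM at Day 5 (log2 fold change -1.63 ± 0.23 SE, edgeR adjusted p = 0.00266). The groups were clearly apart. Ackr3, the scavenging receptor of Cxcl12, was at 138, 114 and 116 CPM at baseline and at 89.7, 80.6 and 73.9 CPM at Day 5 (log2 fold change -0.56 ± 0.15 SE, adjusted p = 0.0382). Both receptors thus fell while Cxcl12 rose.

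The other 3 that fell in ByJcl are atypical receptors. These were Ackr2, which scavenges inflammatory CC chemokines such as Ccl2 and Ccl5 (log2 fold change -0.73 ± 0.16 SE, edgeR adjusted p = 0.0147), Ackr4, which scavenges homeostatic CC chemokines (-1.46 ± 0.36, adjusted p = 0.0284), and Ccrl2 (-0.77 ± 0.16, adjusted p = 0.0155). Podocyte markers fell in the same libraries. Glomerular endothelium markers summed to 8500 to 10286 CPM at ByJcl baseline and 5770 to 7926 CPM at Day 5. Of these 10 markers 2 were called lower and 1 higher, against 4.83% and 5.75% of all tested genes. The part of podocyte and endothelial markers in these results was not tested. The number of receptors called was 1 without ByJcl baseline replicate 2 or ByJcl Day 5 replicate 2, and 2 without ByJcl baseline replicate 1.

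In Ajcl none of the 18 receptors was called by edgeR, 2 had an unadjusted p below 0.05 (Ccrl2 and Cxcr4), a share near the 9.8% of all tested genes, and DESeq2 called 1. Cxcr4 was at 27.0, 19.8 and 13.0 CPM at baseline and at 12.8 and 9.99 CPM at Day 5, with 8.90 CPM in replicate 1 (log2 difference -0.79 ± 0.25 SE, edgeR adjusted p = 0.295). Every Day 5 library lay below every baseline library. Ackr3 was at 145, 142 and 117 CPM at baseline and at 135 and 94.0 CPM at Day 5, with 126 CPM in replicate 1, and these overlapped.

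Leukocyte receptors of the chemokines were low and did not pass the test in either substrain. In ByJcl, Ccr2 was at 3.07 to 8.44 CPM at baseline and 4.49 to 7.98 CPM at Day 5 (edgeR adjusted p = 0.712) and Ccr1 at 0.426 to 1.42 and 0.875 to 1.18 CPM (adjusted p = 0.882). Cxcr2 was at 0.980 to 2.16 and 0.634 to 1.25 CPM (adjusted p = 0.482), Cx3cr1 at 1.49 to 2.72 and 0.317 to 1.58 CPM (adjusted p = 0.229), and Cxcr6 at 0.0426 to 0.172 and 0.171 to 0.603 CPM (adjusted p = 0.242). Cxcr3, the receptor of the strongly raised Cxcl10, had at most 22 counts in any library, and its adjusted p was 0.868. Ackr1 had at most 2 counts in a library and was not tested.

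Transcripts of the proteases that release Cx3cl1 and Cxcl16 did not pass the test. In ByJcl, Adam10 was at 162 to 179 CPM at baseline and 167 to 178 CPM at Day 5 (log2 difference 0.05 ± 0.09 SE, edgeR adjusted p = 0.771), and Adam17 at 101 to 102 and 88.1 to 102 CPM (-0.05 ± 0.08, adjusted p = 0.756). Rhbdf2, a partner that brings Adam17 to the cell surface, was at 62.0 to 71.1 CPM at baseline and rose to between 110 and 158 CPM at Day 5 (log2 fold change 1.06 ± 0.17, adjusted p = 0.00396).

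Of 28 other chemokines, 16 were tested. In ByJcl 1 of the 16 was called higher and none lower, a share near the 5.75% of all tested genes called higher. This was Cxcl11, the third Cxcr3 ligand, which lies 10.7 kb from Cxcl10. Its ByJcl level was 0, 0.129 and 0.0370 CPM at baseline and 2.01, 1.09 and 0.690 CPM at Day 5 (log2 fold change 4.50 ± 1.07 SE, edgeR adjusted p = 0.0235). It passed the filter only through its Day 5 libraries, so that a difference was bound to appear and its values are a description. Of the 16, 9 reached the cutoff in fewer than 2 libraries at baseline or at Day 5, and the other 7 had a median log2 difference of 0.12. DESeq2 called 5 of the 16, and 15.8% of all tested genes. None was called by edgeR without ByJcl baseline replicate 1 or 3 or without ByJcl Day 5 replicate 1 or 2, and 3 were called without either of the fitted Ajcl Day 5 libraries. In Ajcl none of the 16 was called by edgeR or DESeq2, and 4 had an unadjusted p below 0.05, against 9.8% of all tested genes, all of them among those 9.

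**Figure D4:**
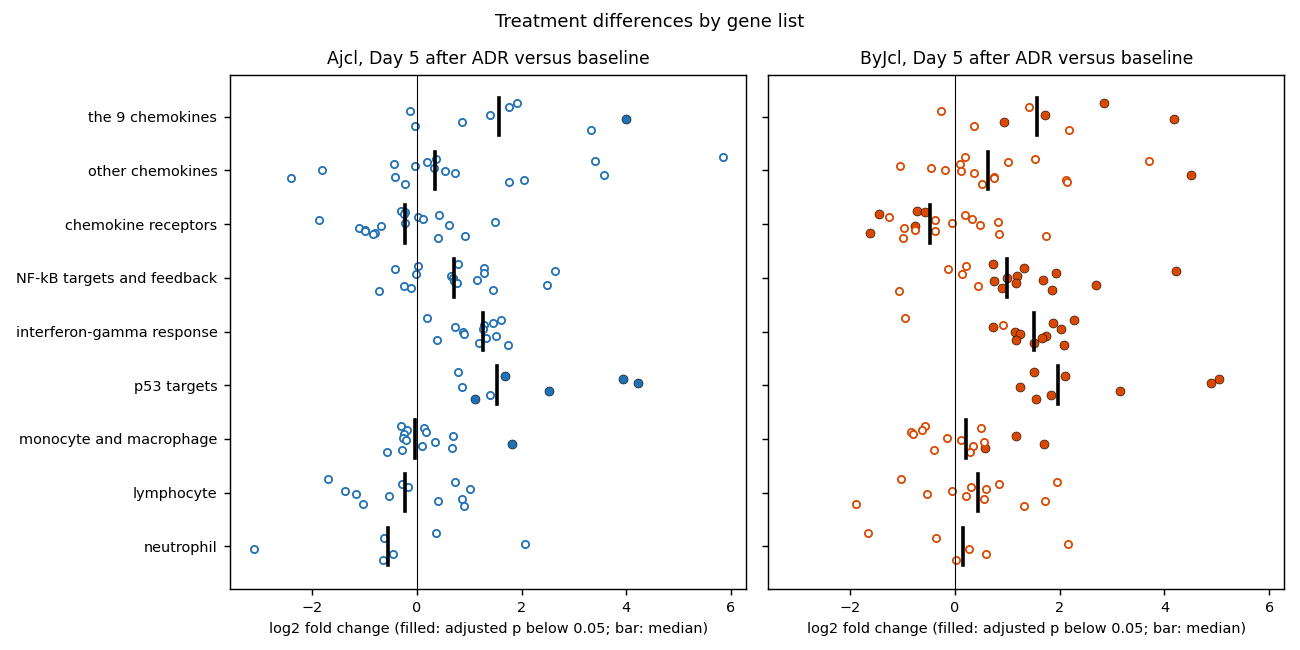
Log2 fold change of Day 5 against baseline (x axis) for each tested gene of 9 lists (y axis) in Ajcl (left) and ByJcl (right). Filled points have an edgeR adjusted p below 0.05 and the vertical bar is the list's median, which lies at 1.00 for NF-kB targets (Il6 included) and 1.50 for interferon-gamma response genes in ByJcl.

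Genes of the pathways known to induce these chemokines were counted next. Of 17 NF-kB targets and feedback genes, the cytokine gene Il6 passed the filter only through its Day 5 libraries and is set aside. Of the other 16, 11 rose in ByJcl and none fell, while 5.75% of all tested genes were called higher, and their median log2 fold change was 0.95. Lif, a cytokine of the interleukin-6 family, had a log2 fold change of 1.92 ± 0.25 (SE; edgeR adjusted p = 0.00185), and the NF-kB inhibitors Nfkbie and Nfkbia had 1.69 ± 0.24 (adjusted p = 0.00285) and 1.00 ± 0.17 (adjusted p = 0.00506). Nfkb2, an NF-kB subunit, had 1.18 ± 0.20 (adjusted p = 0.00536). Without ByJcl baseline replicate 2 or ByJcl Day 5 replicate 2, 7 of the 16 were called.

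Of 14 interferon-gamma response genes, 13 were tested, 11 rose in ByJcl and none fell, against the same 5.75%, with a median log2 fold change of 1.50. Gbp2 and Gbp3, guanylate-binding proteins, had log2 fold changes of 2.28 ± 0.34 (SE; edgeR adjusted p = 0.00327) and 1.88 ± 0.32 (adjusted p = 0.00583), and the immunity-related GTPases Igtp and Irgm2 had 2.03 ± 0.33 (adjusted p = 0.00462) and 1.74 ± 0.30 (adjusted p = 0.00619). These belong to gene families whose similar members can share reads. Ifng itself had 18 counts in ByJcl Day 5 replicate 2, 2 and 1 counts in Ajcl Day 5 replicates 2 and 3, and none in the other 9 libraries.

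In Ajcl none of these 16 NF-kB genes and none of the 13 interferon-gamma response genes was called by edgeR. Of them, 10 and 11 had an unadjusted p below 0.05, as did 9.8% of all tested genes. DESeq2 called 7 and 9, against 1.77% of all tested genes, and their median log2 fold changes were 0.70 and 1.25. Without Ajcl Day 5 replicate 2, which leaves 1 Ajcl Day 5 library, edgeR called 8 and 10, against 1.01% of all tested genes.

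Other injury lists moved in the same libraries. All 8 p53 targets rose in ByJcl and 5 of 8 in Ajcl, against 5.75% and 0.306% of all tested genes called higher. Cdkn1a, the cell cycle inhibitor p21, had a log2 fold change of 5.04 ± 0.31 (SE; edgeR adjusted p = 1.60e-05) in ByJcl and 3.94 ± 0.30 (adjusted p = 0.000257) in Ajcl. Of 11 immediate early genes, which also respond to handling of tissue during isolation, 7 rose in ByJcl, against the same 5.75%, and none was called in Ajcl (6 at an unadjusted p below 0.05, 0 by DESeq2). Ier3 had a log2 fold change of 0.91 ± 0.17 (adjusted p = 0.00892) and Fos of 0.93 ± 0.18 (adjusted p = 0.00979) in ByJcl. Of 11 podocyte markers, 10 fell in ByJcl, against 4.83% of all tested genes called lower, with Magi2 changing most, at a log2 fold change of -2.38 ± 0.28 (adjusted p = 0.00142), and Cdkn1c rose. The part of these genes in the chemokine results was not tested.

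**Figure D5:**
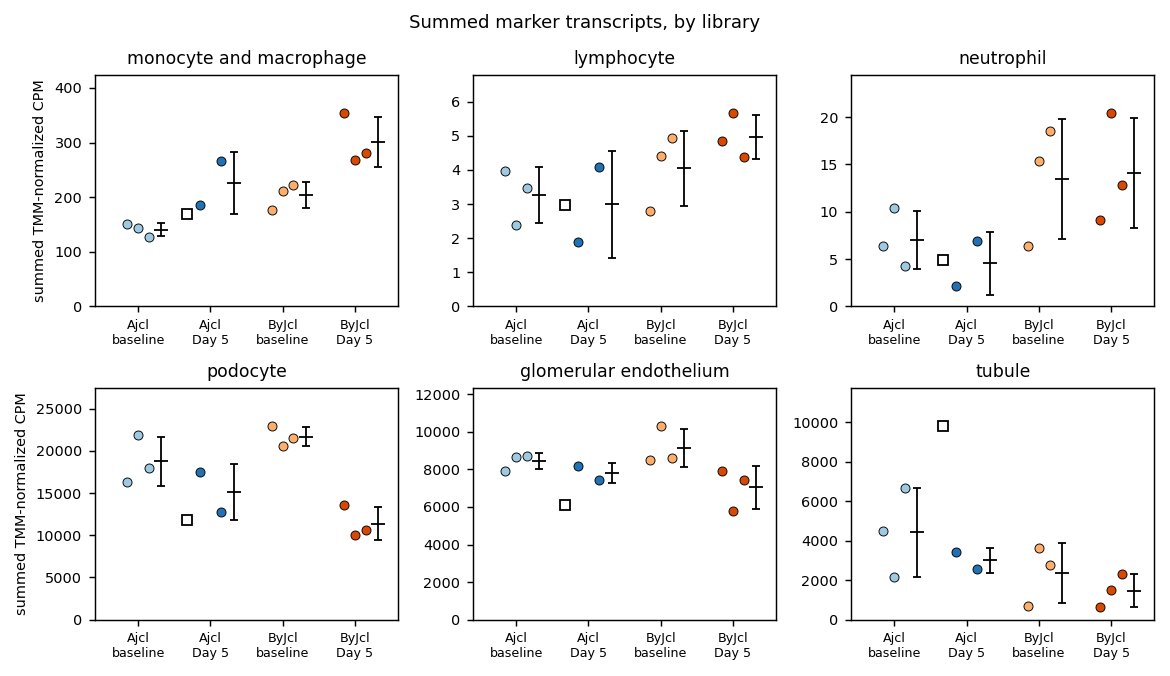
Summed TMM-normalized CPM (y axis, linear from 0) of marker genes for leukocyte classes (top) and kidney cell types (bottom) in each library, by substrain and time (x axis); filled points are fitted libraries, the open square is Ajcl Day 5 replicate 1 and bars are the mean with the SD. Lymphocyte sums stay between 1.88 and 5.67 CPM, podocyte sums are lower in every ByJcl Day 5 library than at ByJcl baseline, and the open square is highest for tubule markers.

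Leukocyte markers were mostly not called. Of 14 monocyte and macrophage markers, 3 rose in ByJcl, while 5.75% of all tested genes were called higher. These were Ly6c2 (log2 fold change 1.70 ± 0.16 SE, edgeR adjusted p = 0.000493), Cd68 (1.17 ± 0.24, adjusted p = 0.0128) and Mrc1 (0.56 ± 0.16, adjusted p = 0.0423). Ly6c2 also rose in Ajcl (1.82 ± 0.17, adjusted p = 0.000959), and it has a near-identical neighbour, Ly6c1, which endothelial cells express, so that its counts are uncertain. Without ByJcl baseline replicate 2 or ByJcl Day 5 replicate 2, 1 of the 14 was called in ByJcl. The summed level of the list was 176 to 223 CPM at ByJcl baseline and 268 to 354 CPM at Day 5, with no overlap, and 128 to 150 and 186 to 266 CPM in Ajcl. That separation in ByJcl rested on Ly6c2, since without it the sums overlapped, at 160 to 203 CPM at baseline and 201 to 311 CPM at Day 5. Without both Ly6c2 and Mrc1 they were 61.3 to 108 CPM at baseline and 70.5 to 131 CPM at Day 5, which also overlap. Ptprc, the pan-leukocyte gene encoding CD45, was at 13.8 to 20.0 CPM at ByJcl baseline and 9.86 to 17.4 CPM at Day 5.

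Of 12 lymphocyte markers, 7 reached the cutoff in at least 2 libraries at each time. None of these 7 was called in ByJcl by edgeR or DESeq2, and 0 had an unadjusted p below 0.05, against 26.8% of all tested genes. The summed level of the 12 was 2.81 to 4.93 CPM at baseline and 4.38 to 5.67 CPM at Day 5, and Cd3e, a T-cell receptor chain, reached at most 0.544 CPM in any library. Of 6 tested neutrophil markers, 4 reached the cutoff in at least 2 libraries at each time. None of these 4 was called in ByJcl by edgeR or DESeq2, and 0 had an unadjusted p below 0.05. In Ajcl none of the 4 was called either, and 1 had an unadjusted p below 0.05. This was Retnlg, which was lower at Day 5 (log2 difference -3.12 ± 1.11 SE, edgeR unadjusted p = 0.017). The defining neutrophil gene Ly6g had at most 4 counts in a library. The part of leukocytes in the chemokine levels was not tested.

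The genes with the pattern most like each chemokine were found by Pearson correlation of log2 CPM over the 11 fitted libraries, the other chemokines of the 9 left out. These libraries share the 4 groups, so the coefficients carry the group differences and are given as a description. The 3 genes closest to Cxcl10 included 1700003M07Rik (r = 0.98) and Tap1, a peptide transporter (r = 0.98). Cxcl1 was closest to Junb, an AP-1 subunit, Zfp36l2, an RNA-binding protein, and Icam1, a leukocyte adhesion molecule (r = 0.97, 0.96 and 0.96). The 3 closest to Cxcl12 included Gm13375 and Gsdmd, the gene of the pore-forming protein gasdermin D (r = 0.96 for each).

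For the low-count Ccl2, Ccl5 and Cxcl9 the closest genes were Unc13c (r = 0.96), Zc3h6 (r = 0.95) and Inf2 (r = 0.96). Cxcl16 was closest to Pla2g15 (r = 0.89) and Cx3cl1 to Arrb2 (r = 0.91). Among the chemokines themselves, Ccl2 with Cxcl1 (r = 0.97) and Cxcl10 with Cxcl12 (r = 0.95) had the highest coefficients, and Cx3cl1 had coefficients between -0.44 and 0.18 with the other 7.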

How the data were processed

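Glomeruli from 12 mice were isolated with magnetic beads and their poly(A) RNA was sequenced by strand-specific paired-end reads. The authors deposited raw read counts per gene symbol, made per the study's methods with Trimmomatic v0.39, STAR v2.7.10a on GRCm39 and featureCounts (Subread v2.0.3); the gene annotation and the strand setting are not given in the sources used here. Of the low counts (1 to 49), 77.1% to 82.9% per library were even numbers, so counts may hold each mate of a pair, and the smallest counts are fewer molecules than they look.

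From these counts, TMM factors, the filterByExpr filter and the quasi-likelihood test of edgeR 4.0.16 (R 4.3.3) were applied to all genes in 11 libraries, with 1 coefficient per group. P-values were adjusted by Benjamini-Hochberg over the 17002 tested genes, and a call is an adjusted p below 0.05. The fit was tested on simulated data, where 60% of 2-fold and 93% of 4-fold changes were recovered for Ajcl and 66% and 97% for ByJcl. Recovery for low-count genes such as Ccl2, Ccl5 and Cxcl9 was not tested separately. Alternatives were DESeq2 1.42.0, RLE factors, other filters, all 12 libraries, the replicate block, halved counts, the compared groups fitted alone and each library left out. Replicates are separate mice. Gene coordinates and exon lengths are from GENCODE M39 on GRCm39, and promoters from RefSeq on GRCm38.p6. SDs and SEs include the variation between mice, and the floor of 3 counts covers counting error only.

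The members and lists were chosen with earlier results of these data known. Named are all 9 chemokines, their receptors and proteases, every other chemokine or receptor called, up to 4 genes per further list with the smallest adjusted p, and the genes most like each chemokine. Ifng, Il6, Ptprc, Cd3e, Ly6g and Cdkn1c were named after their values were seen. Some genes that this rule names are not reported here.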

Additional observations from a re-analysis of the deposited data

Results flagged for a closer look

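Ajcl Day 5 replicate 1 was outside every fitted comparison, and 6 of the 9 chemokines stood above all 3 Ajcl baseline libraries in it, as did 36.5% of the 17002 tested genes. In TMM-normalized CPM its levels were 0.518 for Ccl2, 10.1 for Cxcl1, 0.130 for Cxcl9, 10.4 for Cxcl10, 86.0 for Cxcl12 and 24.2 for Cxcl16. For Cxcl9 this rests on 6 counts. The library also had the highest tubule marker sum of the 12, at 9778 CPM, and the part of this in its chemokine levels was not tested. Groups of 3 were not tested for single outlying samples.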

How the results depend on the processing

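Same-numbered libraries come from different mice, and the labels do not say whether they were handled together. The correlation of their deviations from the group means was above 0.1 in 4 of 15 pairs. Its median was 0.026 over these 15 pairs and -0.0046 over the 30 pairs with different numbers. Of 11 libraries, 6 matched their own number best. With the replicate block the chemokines called were 0 in Ajcl and 3 in ByJcl (Cxcl12 at an adjusted p of 0.0503), and with the compared groups fitted alone 0 in Ajcl. Leaving out 1 library gave 0 to 2 calls in Ajcl, 1 to 4 in ByJcl, and 0 to 1 between the substrains at Day 5. No other alternative moved these counts by over 1.5 times, and none called a chemokine at baseline or in the interaction.

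Of 748 recomputed log2 differences, 697 kept their direction and side of the threshold, 24 lost the call, 3 gained it and 24 changed sign; none of the 24 sign changes touched a call, and the cause was not tested. For Cxcl16 in Ajcl the value was 0.24 with all 12 libraries and 0.012 with the block, and -0.20 to 0.13 when a library was left out. For Ccl5 the leave-out range was -0.30 to 0.91 between substrains at baseline and -0.49 to 1.07 at Day 5. At Day 5 it was -0.24 to 0.76 for Cxcl12 and -0.10 to 0.27 for Cx3cl1, which was -0.0054 with the block. In the interaction Ccl5 was 0.087 with all 12 libraries, 0.14 with the block and -0.89 to 0.67 when a library was left out, and the leave-out range was -0.16 to 1.16 for Cxcl1, -4.70 to 0.10 for Cxcl9, -0.58 to 2.12 for Cxcl10, -0.32 to 0.68 for Cxcl12 and -0.31 to 0.035 for Cx3cl1. Where a group was left with 1 library, it was assumed to vary like the others. Ccl7 has no fitted value to compare. DESeq2 gave no adjusted p for Cxcl9 at Day 5 or in the interaction.

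Over all genes, edgeR called 53 in Ajcl, 1800 in ByJcl, 27 at baseline, 28 at Day 5 and 0 in the interaction; DESeq2 called 301, 2694, 101, 535 and 22, and edgeR with all 12 libraries 54, 1197, 19, 72 and 0. The recounts of the other lists were chosen after the data were seen. On total-count CPM, Cxcl16 in Ajcl Day 5 was 14.8. Counting error bears most on Ccl7, Cxcl9, Ccl2 and Ccl5, with 48, 148, 299 and 397 counts over the 11 fitted libraries.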
